A study of Mus musculus with 2 samples.

Results

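The nuclear-encoded subunits of oxidative phosphorylation were described in nucleoplasmic RNA of mouse bone marrow-derived macrophages. Members were all genes whose name began as a subunit of respiratory complex I (Nduf followed by a, b, c, s or v and a digit), complex II (Sdha to Sdhd), complex III (Uqcr), complex IV (Cox4 to Cox8) or complex V (Atp5), and that had an annotated protein_coding transcript. The rule found 85 gene entries with 84 names among 55536 annotated genes. Complex I had 37 entries, complex II 4, complex III 8, complex IV 18 and complex V 18, and the entries lay on 19 chromosomes. A further 12 entries matched by name but had no protein_coding transcript, most of them processed pseudogenes, and were left out.

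Primary macrophages of strain C57BL/6J were kept for 12 h with Lipid A at 100 ng/ml. Lipid A is the lipid anchor of bacterial lipopolysaccharide and a ligand of Toll-like receptor 4. It was then removed for 12 h, and the cells received 100 ng/ml again for 25 min before the nucleoplasm was taken and ribosomal RNA was depleted. Sex and age were not recorded. The 2 libraries are biological replicates of this single condition, made from 500 ng of RNA (replicate 1) and 1000 ng (replicate 2). The labels give a single donor entry for both, and differences between these libraries may therefore be technical. Paired values below are given for replicate 1 first and replicate 2 second. No untreated or singly treated sample was analysed, so every value below is a level in restimulated nuclei and not a response to Lipid A.

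Oxidative phosphorylation takes place in the inner mitochondrial membrane. Complexes I and II pass electrons from NADH and succinate to ubiquinone, complex III passes them to cytochrome c and complex IV to oxygen, while complexes I, III and IV pump protons that drive ATP synthesis by complex V. All of complex II and most subunits of the other complexes come from nuclear genes and are imported after translation, and the remainder come from the mitochondrial genome. In macrophages, electron entry through succinate dehydrogenase has been linked to inflammatory activation. In bulk RNA, fewer cells of a type and less RNA per cell cannot be told apart.

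Expected counts over all rows of the gene tables summed to 20196408 and 19588980, of which 20139537 and 19576439 lay on annotated genes. For a gene at 0, a share of up to 1.49e-05% and 1.53e-05% of the total remained possible from counting error alone. Of the macrophage markers, among them Csf1r, Adgre1 and Lyz2, 8 of 8 reached 1 TPM (a level divided by transcript length and scaled to a fixed total per library) in both libraries, with list medians of 140.28 and 204.52 TPM. None of the markers of neutrophils, T cells, B cells, erythroid cells, stromal cells or striated muscle did so. Mitochondrially encoded mRNA took 5.80% of expected counts in replicate 1 and 3.12% in replicate 2.

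Sequences at the splice junctions of retained introns are shown first, because in these nuclear libraries a part of the members' counts was assigned to transcripts that keep an intron. Such counts are not particular to the members. Their median share on retained_intron transcripts was 7.53% and 13.7%, beside 7.09% and 8.01% for 7942 protein-coding genes. These medians cover genes with at least 50 counts in both libraries and a transcript not annotated as protein_coding (52 members). For each member, only its retained_intron transcript with the most counts was searched, and only for a whole intron of its leading coding transcript. Among members where such an intron was found, the 4 shown had the highest mean counts on that transcript, and were chosen after their values were seen. Ndufs1, Sdha and Atp5b also had counts on retained_intron transcripts but gave no such intron. Each line gives 15 exon bases in lower case and 15 intron bases in capitals across the 5′ splice site (mm10, GENCODE M21).
Atp5l: caccttacagttaagGTAACTACGTGCTAA
Atp5f1: agactggtgtaacagGTGAGCACTGCCAGG
Cox6c: gccgctgcctataagGTATGTGCTTTAGGT
Ndufb7: agcgcaaggagcgagGTGAGCTCAGTGCGC
The introns were chr9:44913467-44914650 on the minus strand for Atp5l (1184 bases), chr3:105954182-105955895 on the minus strand for Atp5f1 (1714 bases), chr15:35935414-35937154 on the minus strand for Cox6c (1741 bases) and chr8:83566931-83570829 on the plus strand for Ndufb7 (3899 bases). Each of these introns lay between coding exons and began with GT and ended with AG. Cox6c shares exon bases with Vps13b on the opposite strand, a gene with 5659 and 4087 expected counts beside 366 and 321 for Cox6c.

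Promoters were examined for letters that transcription factors of mitochondrial genes are known to recognise. The motifs, searched on both strands, were a palindrome of 10 bases for NRF1 (the capitals in the Ndufa11 line), CCGGAAG for the ETS family that includes GABPA, and a motif of 11 bases for YY1. The RefSeq table (GRCm38.p6) gave promoters of 250 bases before to 50 bases after the start for 68 of 84 member names. Among those not matched were Atp5a1, Cox4i1, Cox6c, Ndufs1, Sdhc and Uqcrb. The lines below show the 60 bases before the RefSeq start of 3 members whose window held a match and overlapped the GENCODE gene by at most 1 base, with the match in capitals.
Uqcrh: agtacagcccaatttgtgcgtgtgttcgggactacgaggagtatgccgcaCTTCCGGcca
Sdhd: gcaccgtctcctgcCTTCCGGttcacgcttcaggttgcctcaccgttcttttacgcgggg
Ndufa11: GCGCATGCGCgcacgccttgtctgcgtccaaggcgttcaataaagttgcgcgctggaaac
These windows were chr4:116075071-116075130 on the minus strand for Uqcrh, chr9:50603850-50603909 on the minus strand for Sdhd and chr17:56717702-56717761 on the plus strand for Ndufa11. Uqcrh and Sdhd held the reverse complement of the ETS letters, and Ndufa11 held the NRF1 letters. The NRF1 letters were present in 6.85% of the 73 member promoters, against 0.971% of all 32851 promoters of that length and 2.21% of promoters of protein-coding genes with at least 10 counts in both libraries. The ETS letters were present in 21.9% of member promoters, against 8.86% of all and 18.5% of those of detected protein-coding genes. The YY1 letters were present in 5.48%, 0.633% and 1.58%. Among detected members with a promoter, the median level was 18.6 and 24.4 TPM for the 16 with ETS letters, and 10.3 and 11.6 TPM for the 48 without. The 5 with NRF1 letters had 13.8 and 18.5 TPM against 11.8 and 12.7 TPM for the 59 without, and the 4 with YY1 letters had 10.5 and 8.37 TPM against 12.7 and 13.1 TPM for the 60 without, the opposite order. These shares are descriptions without a test.

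Most subunit genes were present in the nucleoplasm. Of the 85 entries, 76 reached 1 TPM in both libraries, where 44.9% of 22015 protein-coding genes outside the mitochondrial genome did so. The same number, 76, had at least 10 expected counts in both libraries (detected members), against 51.6% of protein-coding genes. The detected members had a median of 14.2 and 13.7 TPM, and detected protein-coding genes 9.33 and 7.81 TPM. Members made up 0.504% of protein-coding TPM in replicate 1 and 0.512% in replicate 2. Across the 76 detected members, log2 TPM correlated between the libraries with r = 0.897 and rho = 0.892, a description over genes that share both libraries.

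On TPM, the genes of complex I had the lowest median level. Which complex was highest depended on the genes counted. It was complex II over all entries, but complex IV with detected members only (30.8 TPM) or structural subunits only (32.7 TPM), and complex V also stood above complex II in both of these (20.7 and 22.1 TPM against 20.1 TPM). Median levels were 9.10 ± 0.00707 TPM for complex I, 14.9 ± 0.346 for complex III, 15.4 ± 1.24 for complex IV, 18.3 ± 0.615 for complex V and 20.1 ± 1.67 for complex II (SD, n = 2 in each case). In replicate 1 the medians ran 9.10, 15.19, 16.2, 17.9 and 18.94 TPM in that order, and in replicate 2 they ran 9.09, 14.7, 14.5, 18.8 and 21.3 TPM. The values of complexes III and IV overlapped between libraries, so their order was not resolved. Complex I lay below every other complex in both libraries. At 10 TPM or more in both libraries were 13 of 37 entries of complex I, 4 of 4 of complex II, 5 of 8 of complex III, 10 of 18 of complex IV and 12 of 18 of complex V, where 21.4% of protein-coding genes did so.

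On the log2(TPM + 1) scale, the median of complex II was higher than that of complex I by 1.00 ± 0.07, that of complex III by 0.65 ± 0.02, that of complex IV by 0.66 ± 0.09 and that of complex V by 0.92 ± 0.06 (SD, n = 2). Each difference was larger than the spread between the libraries, but no test was made, because the smallest p that an exact sign-flip test reaches with 2 libraries is 0.5. The value for complex IV rested on which genes were counted. With structural subunits only it was 1.71, and with Ndufa4 and Ndufa4l2 counted in complex IV, where the Ndufa4 protein has also been placed, it was 0.01. Ndufa4 itself, an accessory subunit, stood at 4.78 and 8.38 TPM. Without division by length, on CPM (counts scaled to library size), the difference of complex IV was 0.15, with values of opposite sign in the libraries (-0.08 and 0.38).

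**Figure D1:**
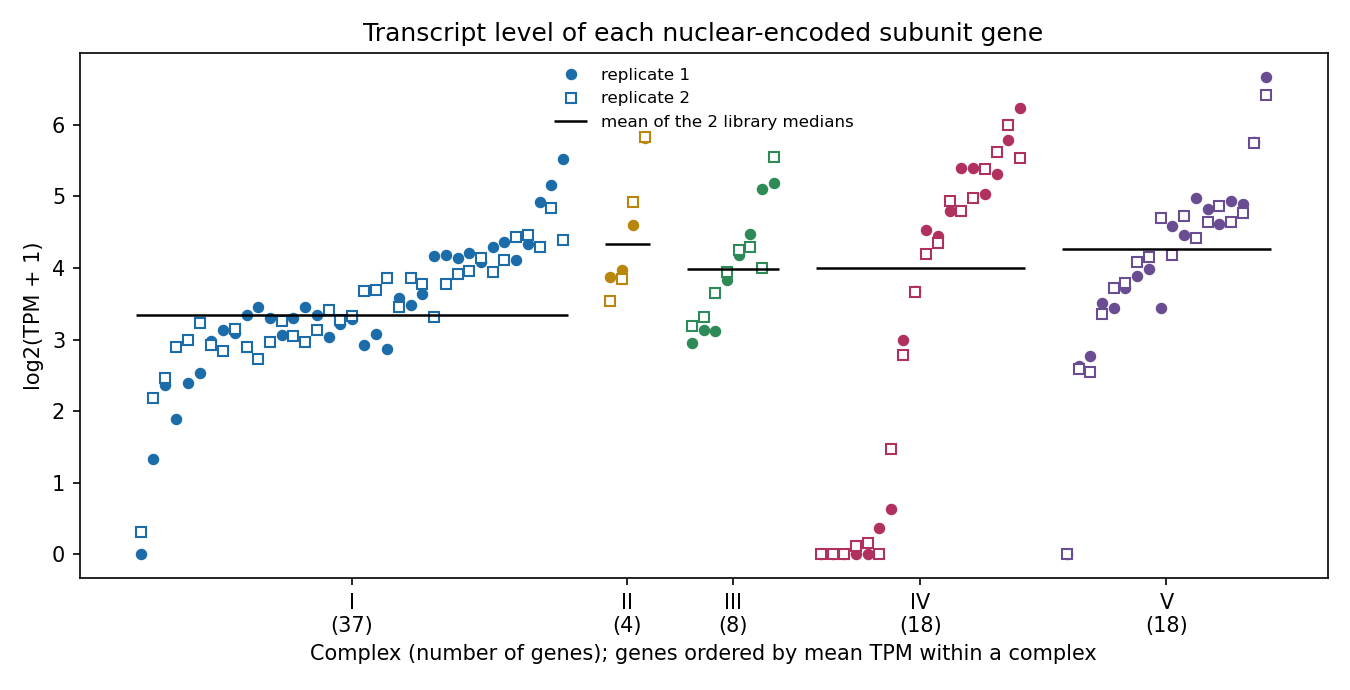
Level of every member gene as log2(TPM + 1) on the y axis, grouped by complex on the x axis and ordered by mean TPM, with filled circles for replicate 1, open squares for replicate 2 and a line at the mean of the 2 library medians. Complex IV splits into 7 variant genes near 0 and 11 genes from 5.86 TPM upwards, and complex I has the lowest median.

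Within complex I, the 7 conserved core subunits had a median of 16.97 and 14.57 TPM, and the 28 accessory subunits 8.85 and 8.83 TPM. Ndufs1, the iron-sulfur subunit of the electron-input arm, was the highest core gene with 34.70 TPM (1245 counts) and 27.66 TPM (1037 counts). Ndufs3, which helps form the arm near the quinone site, stood at 16.27 and 20.65 TPM. Ndufs7, another iron-sulfur subunit, stood at 17.55 and 14.57 TPM. Ndufs8 was the lowest core gene, with 8.29 and 8.62 TPM. Its count depended on the deposited table, with 114 and 145 expected counts against 497 and 522 estimated counts in the second set. That is 4.36 and 3.60 times as many, where the median over detected members was 1.80 and 1.29 times. In the second set Ndufs8 was not the lowest core gene by TPM. Ndufv1, which binds NADH, had 10.12 and 13.46 TPM, and its partner Ndufv2 had 16.97 and 8.91 TPM.

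The accessory subunits of complex I, which surround and stabilise the core, spanned the widest range of that complex. In the gene tables Ndufa3 had 44.86 and 20.03 TPM, the highest mean of complex I (32.4 ± 17.6 TPM, SD, n = 2). Its deposited posterior intervals, 37.56 to 164.06 TPM and 15.58 to 53.64 TPM, overlapped. Of the Ndufa3 TPM, 81.3% and 59.7% lay on transcripts not annotated as protein_coding, against 59.6% and 43.5% for Ndufs1. The rank of Ndufa3 therefore does not describe its coding transcripts. Ndufs1 was higher than Ndufa3 in replicate 2 (27.66 TPM), and in both libraries in the second set of tables. Among the accessory subunits, Ndufb8 followed Ndufa3 in the gene tables, with 29.23 and 18.61 TPM. The lowest detected genes were Ndufb6, with 1.51 and 3.55 TPM on 13.1 and 36.5 counts, and Ndufb4, with 4.14 and 4.49 TPM. Over all detected members, the posterior intervals of the libraries overlapped for 58 of 76.

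Complex II has a catalytic pair and a membrane anchor, and its catalytic genes were the higher. Sdha, the flavoprotein that oxidises succinate, had 55.00 and 55.96 TPM (55.5 ± 0.679, SD, n = 2). The iron-sulfur subunit Sdhb had 23.24 and 29.19 TPM. The anchor subunits Sdhc and Sdhd had 13.66 and 10.60 TPM and 14.64 and 13.41 TPM. Sdha was higher than Sdhb, and Sdhb higher than both anchors, in both libraries, while the values of Sdhc and Sdhd overlapped.

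In complex III, the hinge protein gene Uqcrh was highest, with 35.38 and 45.95 TPM. Uqcrb, which lies near the ubiquinone site, had 33.20 and 14.96 TPM, lower in replicate 2. The core protein genes Uqcrc1 and Uqcrc2 had 21.17 and 18.49 TPM and 6.75 and 8.09 TPM. The Rieske iron-sulfur protein gene Uqcrfs1 had 7.75 and 8.98 TPM. Uqcrc1 was higher than Uqcrc2 and Uqcrfs1 in both libraries, and the latter pair overlapped.

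Complex IV genes were led by Cox7c, with 74.24 and 45.34 TPM. Cox4i1, a subunit that joins early in assembly, had 54.24 and 62.97 TPM, and Cox5a had 38.77 and 48.18 TPM. Cox7c overlapped with both of the others between libraries, while Cox4i1 was higher than Cox5a in both. The lowest detected genes were Cox7b, with 6.95 and 5.86 TPM, and Cox7a2, with 11.80 and 11.61 TPM.

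Several complex IV subunits are encoded by alternative genes used in different tissues, and in the gene tables each widely expressed form stood above its tissue forms. Cox4i1 had 537 and 723 expected counts, while Cox4i2, a form known from lung and low oxygen, had 0 and 1. Cox6a1 had 31.85 and 40.75 TPM, while Cox6a2, the heart and muscle form, had 0.55 and 1.77 TPM on 5 and 19 counts. Cox6a2 shares exon bases with Itgad on the opposite strand, a gene with only 0 and 4 expected counts. The strand setting of the counting was not given. Cox6b1 had 40.97 and 30.41 TPM and Cox6b2, a testis form, 0 and 1 count.

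Cox7a2 had 75 and 110 counts, and Cox7a1, another heart and muscle form, 1 and 0. Cox7a2l, whose protein takes part in supercomplexes, had 22.14 and 17.36 TPM. Cox7b2, Cox8b and Cox8c had 0 counts in both libraries, beside 59 and 74 counts for Cox7b and 175 and 235 for Cox8a. A complex I variant, Ndufa4l2, had 0 and 1 count. In the second set of tables the tissue forms also stood lower, but not all near 0. There Cox7a1 had 51 and 16 estimated counts beside 201 and 168 for Cox7a2, Cox4i2 had 13 and 6, Cox6a2 had 24 and 33, and Cox8b had 4 and 5. The counts of that set summed to 1.72 and 1.43 times those of the gene tables. The entry with the same name as Atp5o, the fourth at 0 in both gene tables, shares 94.0% of its 31-base words with other genes, Donson among them. Striated muscle markers were at or near 0, with Acta1 and Myh6 at 0 and Ckm at 0 and 0.04 TPM.

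The ATP synthase offers a contrast, because all 3 genes for its c-ring subunit were present. Atp5g3 had 23.45 and 28.08 TPM, Atp5g2 13.80 and 15.91 TPM, and Atp5g1 5.80 and 4.83 TPM. In the gene tables the order was the same in both libraries with no overlap between neighbours. In the second set of tables Atp5g1 stood above Atp5g2 in replicate 1 (16.8 against 14.4 TPM over protein-coding genes), and Atp5g3 was highest there too. A part of the 31-base words of Atp5g2 (40.2%) also occurs in transcripts of other genes, chiefly the processed pseudogene Gm10175, so its level is less certain than those of the other genes of the ring.

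**Figure D2:**
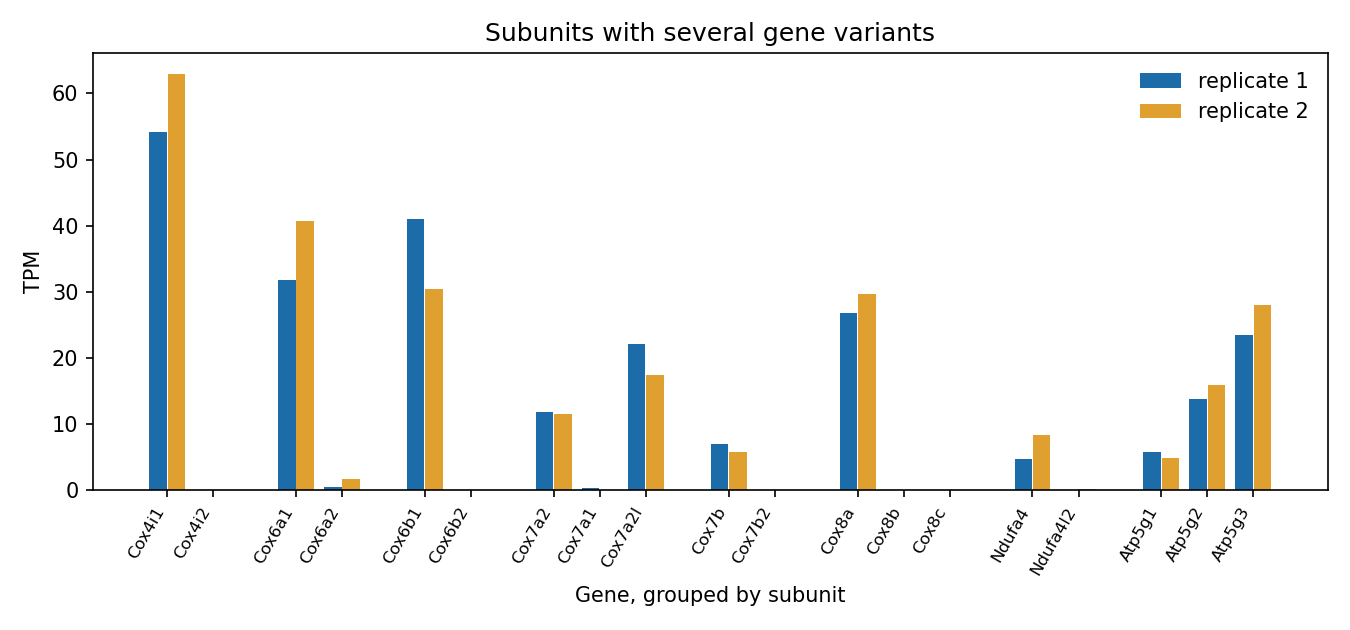
Level in TPM on the y axis for genes that encode alternative forms of a subunit on the x axis, with 1 bar for each library. The widely expressed Cox genes stand between 5.86 and 62.97 TPM while their tissue forms lie at or near 0, while Atp5g1, Atp5g2 and Atp5g3 are all above 4 TPM.

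In complex V, the catalytic head stood highest. Atp5b, the catalytic beta subunit, had 100.59 and 84.01 TPM, and Atp5a1, the alpha subunit, 53.21 and 52.34 TPM. Of the Atp5b TPM, 47.0% and 42.8% lay on transcripts not annotated as protein_coding, against 1.41% and 5.16% for Atp5a1. The gap between these genes therefore does not describe their coding transcripts. The central stalk (Atp5c1, Atp5d and Atp5e) had a median of 14.77 and 16.79 TPM. The peripheral stalk stood at 21.02 and 20.35 TPM, the membrane part at 19.64 and 24.52 TPM and the c-ring at 13.80 and 15.91 TPM. The peripheral stalk median includes the second Atp5o entry at 0, which lowers it. Its other genes were Atp5f1 (30.58 and 20.35 TPM), Atp5h (29.64 and 23.84 TPM), Atp5j (21.02 and 25.32 TPM) and Atp5o (9.84 and 12.12 TPM). Atp5l, a membrane subunit, had the third highest mean of the complex in the gene tables, with 28.64 and 26.27 TPM. In the second set of tables Atp5f1, Atp5g3, Atp5h and Atp5j also stood above Atp5l in both libraries. Atp5s, a coupling factor, had 5.10 ± 0.141 TPM (SD, n = 2), and with Atp5g1 it formed the low end of the detected genes.

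Counts on transcripts that are not annotated as protein_coding were compared for the 52 members that had such a transcript and at least 50 counts in both libraries. The median share was 27.3% of expected counts in replicate 1 and 23.1% in replicate 2, and over 7942 protein-coding genes it was 15.4% and 15.9%. On TPM, which corrects for the length of each transcript, the order was the opposite, with 23.1% and 19.8% for members and 29.6% and 30.6% for protein-coding genes. A share of at least 50% in both libraries was found for 7 of 52 members, near the 13.1% of protein-coding genes. By expected counts, the medians were 41.4% and 32.5% for complex I and 30.8% and 30.9% for complex V. They were 19.8% and 22.4% for complex II (2 members), 7.69% and 4.41% for complex IV and 3.56% and 12.8% for complex III. The side on which complex V stood depended on the unit. By TPM its median lay below that of protein-coding genes in both libraries, as did those of complexes III and IV. Complex I (40.5% and 34.2%) and complex II stayed above it by TPM. By counts of the second set of tables, complex IV lay below protein-coding genes in replicate 1 and above them in replicate 2.

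The highest shares belonged to Atp5l, Atp5f1, Atp5j, Ndufb7 and Ndufa5. Atp5l had 83.2% (exact binomial 95% interval 80.3% to 85.7%) in replicate 1 and 71.8% (67.9% to 75.3%) in replicate 2. Its 6310-base retained-intron transcript, which holds the intron shown above, had 645.85 and 423.46 counts, beside 131.57 and 168.9 on the coding transcript. By TPM the coding transcript was the higher, with 20.47 and 21.68 against 5.34 and 3.18. These intervals cover counting error only, and the division of counts among transcripts is the estimate of the authors' program.

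Atp5f1, the b subunit of the peripheral stalk, had 90.6% and 58.6%. Its exons overlap those of Wdr77 on the opposite strand, with 379 and 201 counts of its own. Atp5j, the coupling factor 6 subunit, had 76.2% and 65.4%. Atp5j overlaps Gabpa, which encodes the DNA-binding subunit of the ETS factor named above, on the opposite strand, with 821 and 692 counts. In all, 30 of 85 entries shared exon bases with another gene, 26 of them on the opposite strand. Ndufb7 had 77.0% and 60.9% and Ndufa5 76.5% and 58.5%. By TPM the share of Ndufb7 was only 24.2% and 13.8%, while that of Ndufa5 was 90.2% and 63.5%. At the other end, 10 of 52 members stayed under 5% in both libraries, where 24% of protein-coding genes did so, among them Cox8a, Cox7c, Cox6a1 and Atp5a1.

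**Figure D3:**
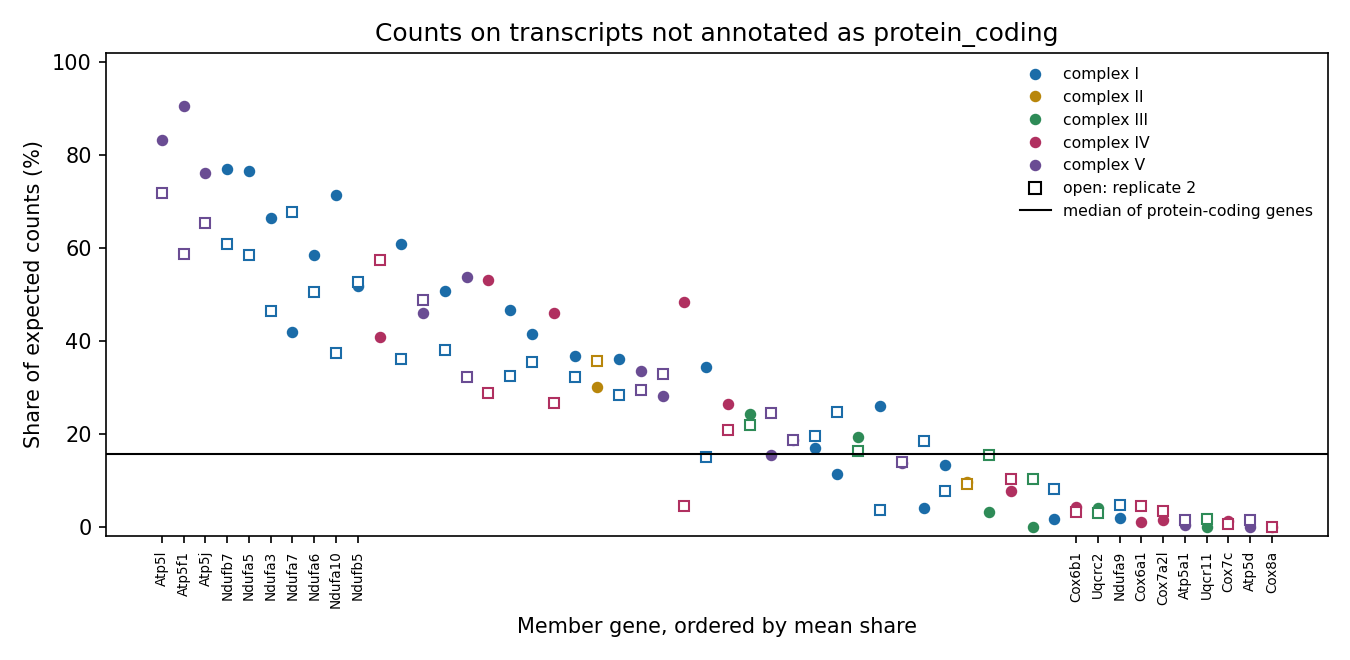
Share of a gene's expected counts, in percent on the y axis, on transcripts not annotated as protein_coding, for the 52 members on the x axis (names shown for the 10 highest and 10 lowest), with filled circles for replicate 1, open squares for replicate 2 and a line at the median of protein-coding genes (mean of the 2 libraries). Genes of complexes I and V occupy the left end, with Atp5l at 83.2% and 71.8%, and Cox8a stands at the right end. The order is by counts, and by TPM the median of complex V lay below that of protein-coding genes.

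The members were higher in replicate 2 than in replicate 1 on TMM-normalised CPM. Their median log2 ratio was 0.33, with 57 of 76 above 0 where 50.7% of 14596 detected genes were, and the median of all those genes was 0.01. Higher by at least 1.5-fold were 23 of 76 members, against 14.1% of genes, and lower by as much was 1 member, Uqcrb, against 10.8%. Past 2-fold in either direction were 8 members, against 7.79% of genes. On TPM the members' median was -0.02 and that of all genes -0.28, so the members stood higher relative to all genes on both scales. With 1 library on each side there is no test.

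The largest ratios belonged to short genes with few counts. Atp5k, a small membrane subunit of complex V, rose from 31 to 121 counts, a log2 ratio of 2.11. It was followed by Ndufb6 (1.62), Ndufa2 (1.51), Ndufa1 (1.36) and Ndufa11 (1.35). In the other direction stood Uqcrb (-0.70), Ndufa12 (-0.58), Ndufv2 (-0.53), Ndufa3 (-0.28) and Atp5s (-0.27). For 54.3% of the 31-base words of the Uqcrb coding transcripts another gene's transcript holds the same word. Such sharing reached 10% of words for 28 of 85 entries and was absent for 35. It was 69.6% for Atp5l and 49.3% for Ndufs3, mostly with processed pseudogenes, and the levels of these genes are uncertain to that extent.

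Members with an effective length under 500 bases had a median log2 ratio of 0.54 (25 of 32 above 0), and those of 500 bases or more 0.22 (32 of 44). Protein-coding genes of the same length classes had 0.38 (179 of 244) and 0.01. By mean count, members under 100 counts had a median of 0.62, those of 100 to 300 counts 0.29 and those over 300 counts 0.12, while protein-coding genes stood at 0.04, 0.04 and 0.00. The part of length and count level in the difference between libraries was not tested.

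**Figure D4:**
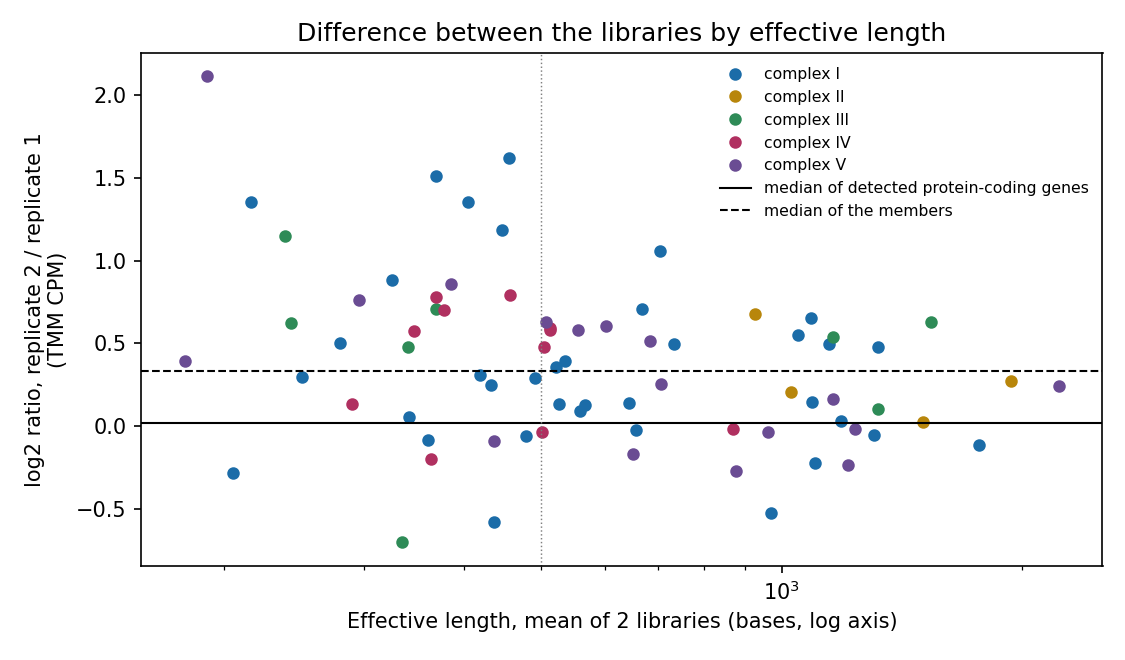
Log2 ratio of replicate 2 over replicate 1 (TMM CPM, y axis) against effective length in bases (log x axis) for the 76 detected members, coloured by complex, with lines at the median of detected protein-coding genes and of members and a dotted line at 500 bases. Atp5k, at 2.11, is the highest point, and the short genes reach higher ratios than the long ones.

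Complexes I, III, IV and V also contain subunits of the mitochondrial genome, and on TPM each of these 13 genes lay above every nuclear-encoded gene of the same complex. The margin was narrowest for mt-Co2, with 163 and 103 TPM beside 74.24 and 45.34 TPM for Cox7c and 54.24 and 62.97 TPM for Cox4i1. The log2 ratio of the mitochondrial to the nuclear median was 8.83 and 7.66 for complex I, 8.41 and 7.10 for complex III, 4.44 and 5.08 for complex IV and 9.83 and 7.51 for complex V. For complex IV the mitochondrial median was that of mt-Co3 (353 and 489 TPM), beside 20302 and 11064 TPM for mt-Co1, the catalytic subunit. Its nuclear median included the variant genes near 0. The low ratio of complex IV depended on the tables used. In the second set it was 7.30 and 6.98, beside 8.74 and 7.25 for complex I and 8.01 and 6.98 for complex III. For complex V it lay midway between mt-Atp8 (31294 and 6293 TPM on 11786 and 5201 counts) and mt-Atp6 (1174 and 556 TPM on 10743 and 5986 counts). On CPM the ratio of complex V was 6.31 and 4.86, below those of complex I (8.97 and 8.09) and complex III (8.98 and 7.83). Of the 13 genes, 3 were higher in replicate 2 and 10 lower, with a median log2 ratio of -0.69 on TMM CPM. On that scale the nuclear-encoded members had 0.33. On TPM the members' median ratio was -0.02, while the median level of the 13 mitochondrial genes was 4139 TPM in replicate 1 and 1839 TPM in replicate 2. With 1 library on each side this was not tested, and RNA carried over from mitochondria was not measured separately.

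**Figure D5:**
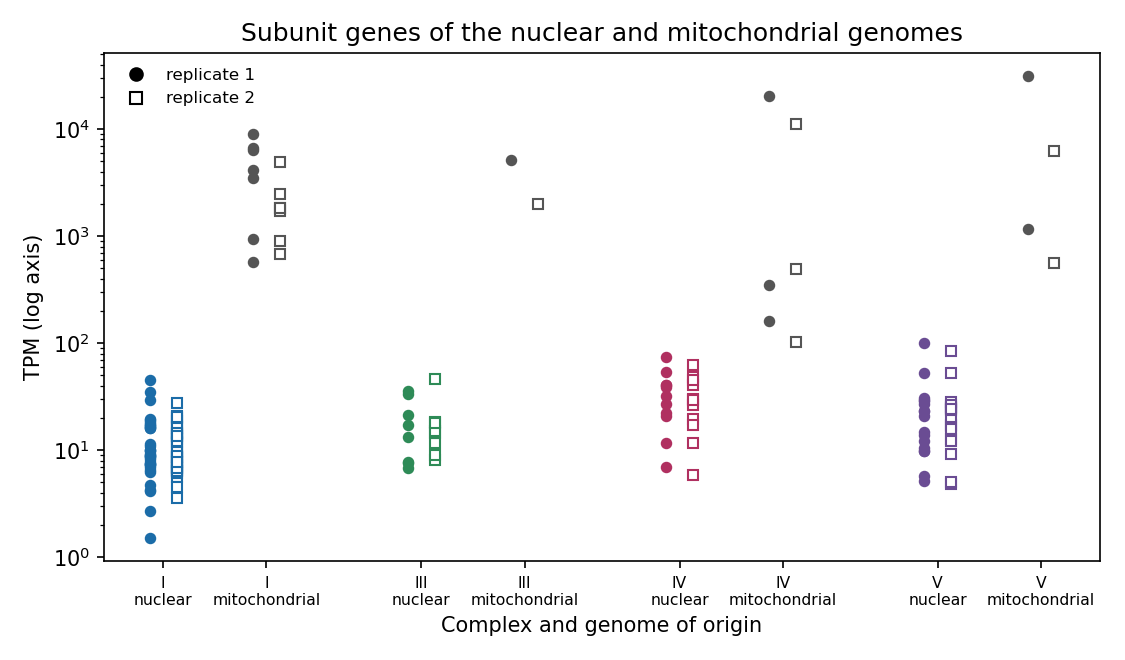
Level in TPM (log y axis) of nuclear-encoded detected members (coloured) and mitochondrially encoded subunits (grey) by complex on the x axis, with filled circles for replicate 1 and open squares for replicate 2. Every mitochondrial gene lies above every nuclear-encoded gene of its complex, and most are lower in replicate 2.

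Genes that serve the complexes without being members were mostly lower. Assembly factors reached 1 TPM in both libraries for 13 of 14 genes of complex I, 3 of 4 of complex II, 5 of 6 of complex III and 19 of 22 of complex IV. Their median levels were 3.86 ± 0.513, 2.26 ± 0.682, 4.05 ± 1.22 and 6.89 ± 0.159 TPM (SD, n = 2), each below the median of the complex served. Foxred1 led for complex I (14.21 and 19.02 TPM), Sdhaf2 for complex II (18.18 and 11.11 TPM), Uqcc1 for complex III (12.35 and 7.24 TPM) and Coa5 for complex IV (40.07 and 31.92 TPM). Of the 5 assembly and inhibitor genes of complex V, 4 reached 1 TPM. Atpif1, the inhibitor that blocks reverse rotation of the ATP synthase, had 57.02 and 34.97 TPM.

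Electron carriers and other subunits outside the name rule, such as Cycs (cytochrome c, 9.38 and 12.04 TPM) and Ndufab1 (31.72 and 19.89 TPM), reached 1 TPM for 6 of 6 genes. Enzymes of the tricarboxylic acid cycle, which supplies NADH and succinate, did so for 13 of 13, with medians of 18.27 and 15.92 TPM and Dlst highest at 58.26 and 38.78 TPM. Regulators of mitochondrial biogenesis did so for 11 of 12. Esrra had 22.19 and 22.73 TPM and Pprc1 21.29 and 19.70 TPM, while the coactivator gene Ppargc1a had 0.04 and 0.00 TPM.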

How the data were processed

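Total RNA-seq of the nucleoplasm was deposited for 2 libraries, with assembly mm10 and annotation GENCODE M21, per the file headers and notes. Which programs made the values, and whether counting used strand, is not given in the sources used here. Per gene and transcript, the authors deposited expected counts and TPM, with signal-scale bounds of posterior TPM intervals whose level is not stated. A second set of transcript tables by the authors, with another column layout, holds estimated counts and TPM, and was used as an alternative. Posterior means and intervals were used as deposited.

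Expected counts were rounded and normalised by TMM (edgeR 4.0.16, R 4.3.3). DESeq2 1.42.0 size factors were an alternative. The TMM scaling was also run on simulated data with equal numbers of raised and lowered genes. Gene length played no part there, so the simulation cannot judge the ratios of short genes. Other values were computed in Python 3.11.15 (pandas 2.3.3, numpy 2.4.6, scipy 1.17.1). Detected means at least 10 counts in both libraries, and log2 levels used a pseudocount of 1. Complex differences are differences of medians of log2(TPM + 1). No test was run, because the single group has no contrast.

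The text names, per complex, the 3 highest and 2 lowest detected members, members at 0, all alternative forms of a subunit, the Sdh genes, core subunits, the 5 largest ratios in each direction, the 5 highest shares on other transcripts and the highest genes of other lists. Members and lists were chosen with earlier results of these data known. Protein sequences were not used here, and some genes that the naming rule covers are not reported here.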

Additional observations from a re-analysis of the deposited data

How the results depend on the processing

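The 18 summary values were recomputed under 115 alternatives. Of these, 67 stayed within the spread between libraries (within 0.1 log2 for the median ratio, within 1.5 times for counts), 47 moved and 1 changed sign. The 67 include the runs without replicate 1 or without replicate 2. For values with an SD, those runs were bound to stay within the spread, so they say nothing about stability. Where a cause is not named, the cause was not tested. Other units set other scales for the complex medians (I to V in order). TPM over protein-coding genes alone gave 32.1, 71.1, 52.6, 54.0 and 64.7, the second set of tables gave 33.8, 64.6, 45.2, 52.7 and 58.8, and TMM CPM 5.73, 22.5, 9.40, 6.93 and 8.50. With detected members only, fewer genes entered and medians were 9.25 (I), 30.8 (IV) and 20.7 (V). The posterior mean gave 9.54 for complex I. Without replicate 1 or without replicate 2, the medians ran from 9.09 to 9.10 (I), 18.94 to 21.3 (II), 14.7 to 15.19 (III), 14.5 to 16.2 (IV) and 17.9 to 18.8 (V). The differences from complex I then ran from 0.95 to 1.05 (II), 0.64 to 0.67 (III), 0.59 to 0.72 (IV) and 0.88 to 0.97 (V). The difference of complex II was 0.88 by the posterior mean, 0.82 by the second tables and 1.77 on CPM. That of complex III was 0.57, 0.39 and 0.61 in the same order, 0.69 over protein-coding TPM, 0.70 with a pseudocount of 0.1 and 0.61 with Ndufa4 and Ndufa4l2 in complex IV. That of complex IV was 0.15 on CPM, 1.63 with detected members, 1.71 with structural subunits and 0.011 with Ndufa4 and Ndufa4l2 added, since the added genes moved its median towards the variants near 0. That of complex V was 0.76 by the second tables, 0.47 on CPM, 1.08 with detected members, 0.99 with a pseudocount of 0.1 and 1.17 with structural subunits.

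The median log2 ratio between libraries was -0.024 on TPM as deposited, the change of sign, beside -0.28 for all genes. Past 2-fold, 8 members were higher and 0 lower in replicate 2; on TPM 9 were higher and 8 lower past 1.5-fold, and with DESeq2 size factors 2 were lower. The median share on other transcripts was 21.4% by TPM and 30.5% by the second tables, and 23.1% to 27.3% without replicate 1 or without replicate 2. The mitochondrial over nuclear log2 ratio was 5.23 on CPM and 7.14 by the second tables for complex IV, and 5.59 on CPM for complex V. Without replicate 1 or without replicate 2 it ran from 7.66 to 8.83 (I), 7.10 to 8.41 (III), 4.44 to 5.08 (IV) and 7.51 to 9.83 (V). Members at 1 TPM numbered 76 or 77 by the posterior mean, with detected members only or with a single library. At 1 unit of other scales, members numbered 75 (TMM CPM), 77 (TPM over protein-coding genes) and 80 (second tables over protein-coding genes). No paired analysis was possible because there is a single group. Depth limits the low genes, since 23 of 76 detected members had a mean under 100 counts.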
